A study of Mus musculus with 22 samples.

Results

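GABAergic interneurons of the hippocampal CA1 region were followed through 10 genes that mark them, namely Gad1, Gad2, Slc32a1, Pvalb, Sst, Vip, Npy, Cck, Lhx6 and Reln. The genes were taken by name from the 23361 genes of the deposited FPKM matrix (fragments per kilobase of exon, scaled to the library's mapped fragments), and all 10 were among the 16978 genes that reached a mean of 0.1 FPKM and were tested. Each of 22 libraries came from the CA1 microdissection of 1 female Swiss Webster x DBA/C57BL6 F1 mouse without a transgene. Mice were fed ad libitum (AL, labelled as the normal diet) or a calorie-restricted (CR) diet whose reduction was made in carbohydrates, starting in young adulthood, and were taken at 5 months (5 AL and 5 CR mice) or at 15 months (6 AL and 6 CR mice), with replicates numbered from 0 as in the labels. The mRNA of the whole dissected tissue was sequenced, so fewer interneurons and less mRNA per interneuron cannot be told apart in any value below.

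Interneurons are the local inhibitory cells of the hippocampus. They make the transmitter GABA from glutamate, load it into synaptic vesicles and release it onto pyramidal neurons and onto each other. Their types are told apart by the calcium-binding protein or neuropeptide they make: parvalbumin in fast-spiking basket cells, somatostatin in dendrite-targeting cells, vasoactive intestinal peptide in cells that mostly contact other interneurons, cholecystokinin in a further class of basket cells, and neuropeptide Y and reelin in neurogliaform cells. Cck is also transcribed by excitatory neurons, and Reln by Cajal-Retzius cells, an early-born cell type of the outer layers, so neither is particular to interneurons.

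The 250 bases before the annotated start are printed for the genes that passed the test, Reln and Cck, and for Sst and Npy, the pair of peptides whose levels went together between mice (RefSeq, build GRCm38.p6, minus strand for Reln at chr5:22344706-22344955, Cck at chr9:121495695-121495944 and Sst at chr16:23890845-23891094, plus strand for Npy at chr6:49822460-49822709). Capitals mark TGACG, the core of the site bound by CREB, and GGGCGG, the core of the site bound by Sp1, read on both strands.
Reln: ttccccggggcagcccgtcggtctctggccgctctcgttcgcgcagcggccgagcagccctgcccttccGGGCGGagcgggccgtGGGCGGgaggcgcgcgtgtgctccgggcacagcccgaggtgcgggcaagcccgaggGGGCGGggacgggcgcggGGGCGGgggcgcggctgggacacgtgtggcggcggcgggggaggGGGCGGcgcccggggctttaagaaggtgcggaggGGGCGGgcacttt
Cck: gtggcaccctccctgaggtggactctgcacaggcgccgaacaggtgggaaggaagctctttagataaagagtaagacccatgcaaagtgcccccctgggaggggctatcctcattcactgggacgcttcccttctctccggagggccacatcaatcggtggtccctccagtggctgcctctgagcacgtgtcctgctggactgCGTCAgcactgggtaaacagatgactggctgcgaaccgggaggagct
Sst: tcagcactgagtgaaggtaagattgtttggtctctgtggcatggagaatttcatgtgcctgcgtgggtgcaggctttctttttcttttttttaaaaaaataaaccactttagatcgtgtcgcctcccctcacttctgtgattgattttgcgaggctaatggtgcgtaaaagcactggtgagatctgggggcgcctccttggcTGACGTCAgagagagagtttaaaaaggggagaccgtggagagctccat
Npy: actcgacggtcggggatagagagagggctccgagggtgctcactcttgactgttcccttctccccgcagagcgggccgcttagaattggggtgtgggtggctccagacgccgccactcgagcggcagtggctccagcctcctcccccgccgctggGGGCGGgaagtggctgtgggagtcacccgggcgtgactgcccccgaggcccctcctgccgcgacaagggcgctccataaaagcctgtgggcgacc
The full palindrome TGACGTCA, which holds TGACG on both strands, began 48 bases before the start of Sst and was in 1.55% of all 32851 promoter windows of this length. TGACG alone was also present before Gad2, Vip and Cck and in 17.8% of all windows. GGGCGG occurred 6 times before Reln and once before Npy, was also present before Gad1 and Lhx6, and was in 32.7% of all windows. The Reln window had a GC content of 80.0% with 37 CG pairs, against medians of 52.4% and 6 over all windows. These matches describe letters in the windows and say nothing of a factor's binding.

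The 10 markers ranged over more than an order of magnitude in level. Averaged over 22 libraries, the most abundant were Cck at 354 ± 62.4 FPKM and Sst at 351 ± 93.0 FPKM (SD), both at the 98.6th percentile of tested genes. Gad1 followed at 130.4 ± 14.4 FPKM, Npy at 109 ± 28.2 FPKM and Pvalb at 54.0 ± 18.1 FPKM. Gad2 averaged 40.6 ± 4.70 FPKM and Slc32a1 37.4 ± 7.00 FPKM, while Vip averaged 26.4 ± 9.11, Reln 12.8 ± 5.35 and Lhx6 9.32 ± 1.91 FPKM. FPKM is scaled by length, so these levels can be ordered between genes. Cck exceeded Sst in 11 of 22 libraries, so this pair had no order, whereas Sst exceeded Gad1 in 22 of 22 without overlap of their ranges. Pvalb was above Gad2 in 17 libraries, Gad2 above Slc32a1 in 16 and Reln above Lhx6 in 15, and the ranges of each of these neighbours overlapped. No marker was listed at 0 in any library.

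**Figure D1:**
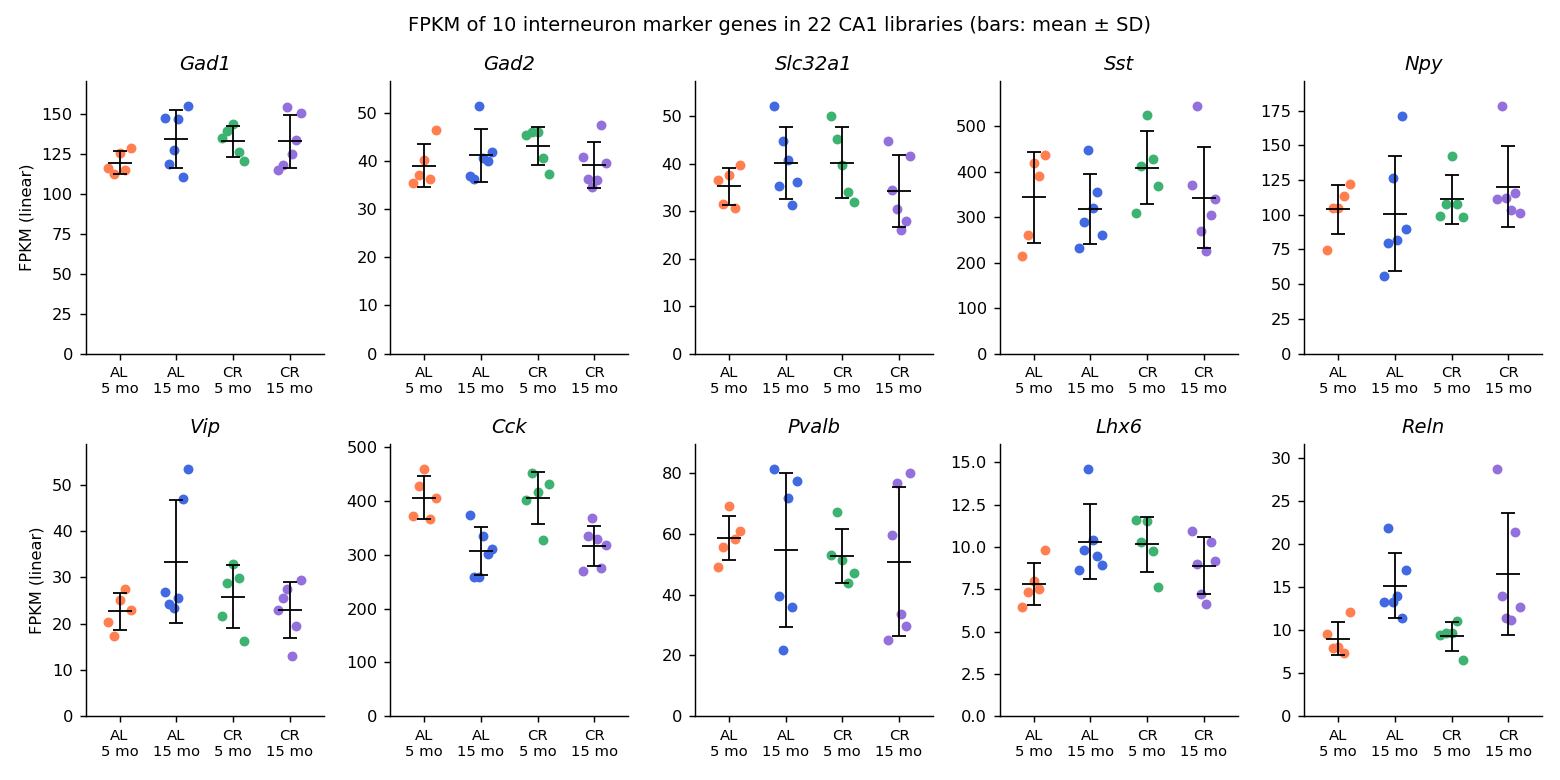
FPKM of each marker (vertical axis, linear, from 0) in every library, by diet and age (1 point per mouse, n = 5 per group at 5 months and n = 6 at 15 months, black bars for the mean ± SD). Mean Cck is 406 FPKM in both 5-month groups and 307 (AL) and 316 (CR) FPKM at 15 months, mean Reln is 9.00 and 9.27 against 15.2 and 16.6 FPKM, and Pvalb spreads from 21.7 to 81.5 FPKM in AL mice at 15 months.

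The first question was how the markers differed between 15 and 5 months in mice fed AL. Of the 10, Reln rose and Cck fell, and 8 did not pass the test. With limma's fit across all tested genes and a Benjamini-Hochberg adjusted p under 0.05, 20.6% of all tested genes were called in this comparison, so 2 of 10 was near the background. An unadjusted p under 0.05 was reached by 3 markers, the third being Lhx6, and by 35.2% of all genes. The libraries of the compared groups did not overlap for 0 markers and for 14.0% of all genes.

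**Figure D2:**
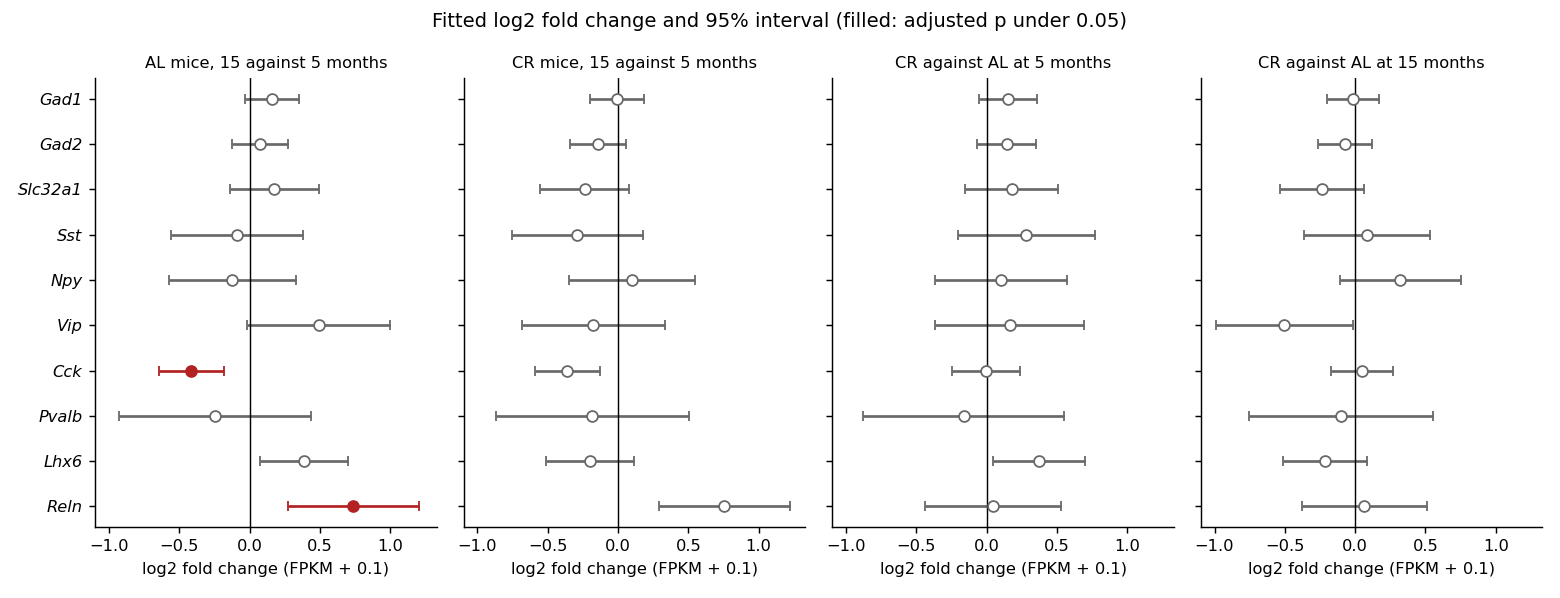
Fitted log2 fold change of log2(FPKM + 0.1) for each marker (horizontal axis, first-named group minus second) with its 95% interval, for age within each diet and for CR against AL at each age. Filled red points passed an adjusted p under 0.05 and are Cck and Reln in AL mice, while the intervals of Cck and Reln also lie off 0 for age in CR mice.

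Transmitter synthesis and loading were read from 3 genes. Gad1 (GAD67, chr2:70553072-70602014) and Gad2 (GAD65, chr2:22622205-22693874) encode the enzymes that turn glutamate into GABA, and Slc32a1 (VGAT, chr2:158610767-158615748) encodes the vesicular GABA transporter. The spans of antisense genes overlap Gad1 (Gad1os) and Slc32a1 (Gm14205). The library kit does not mark strand, so reads from stretches that both partners cover cannot be assigned by strand.

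Gad1 was at 116, 113, 125, 115 and 129 FPKM in the AL mice at 5 months and at 111 to 155 FPKM (median 137) in the AL mice at 15 months. In CR mice it was at 135, 139, 144, 126 and 120.5 FPKM at 5 months and at 115 to 154 FPKM (median 129.6) at 15 months. All groups overlapped, and the AL mice at 5 months were the most alike, with an SD of 7.10 FPKM against 18.1 FPKM at 15 months. The log2 fold change with age was 0.16 in AL mice (95% interval -0.04 to 0.35, adjusted p = 0.231) and -0.01 in CR mice (interval -0.20 to 0.19, adjusted p = 0.984). At 5 months CR exceeded AL by 0.15 on the log2 scale (interval -0.05 to 0.36), and all 5 CR mice lay above the AL median. The exact permutation test of that single difference gave p = 0.0397, while limma's unadjusted p was 0.134 and its adjusted p was 1.

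Gad2 gave 35.4, 37.1, 40.2, 36.3 and 46.4 FPKM in AL mice and 45.4, 46.1, 46.0, 40.7 and 37.3 FPKM in CR mice at 5 months. At 15 months it ranged from 36.4 to 51.5 FPKM (median 40.4) in AL mice and from 34.5 to 47.5 FPKM (median 37.9) in CR mice. These ranges overlap throughout. Its log2 fold change with age was 0.08 (interval -0.13 to 0.28) in AL mice and -0.14 (interval -0.34 to 0.06) in CR mice, with adjusted p of 0.605 and 0.466. The within-group SD of Gad2 was 0.16 on the log2 scale and that of Gad1 0.15, among the steadier 30.7% and 27.3% of tested genes.

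Slc32a1 was at 36.5, 31.5, 37.7, 30.6 and 39.7 FPKM in AL mice and 50.0, 45.1, 39.8, 34.1 and 32.0 FPKM in CR mice at 5 months. In the 15-month groups it ranged from 31.3 to 52.2 FPKM (median 38.6) with AL and from 26.1 to 44.9 FPKM (median 32.5) with CR. The transporter thus overlapped between all groups. The age contrast was 0.18 (interval -0.14 to 0.49) on the log2 scale in AL mice and -0.24 (interval -0.55 to 0.08) in CR mice, and the age by diet interaction was -0.41 (interval -0.86 to 0.03, adjusted p = 0.657). Genes of GABA reuptake and breakdown, among them Abat and Aldh5a1 of the breakdown pathway, gave 0 calls of 5 in each of the 6 contrasts. Of all tested genes 20.6% were called for age in AL mice, and 0% to 3.36% in the other contrasts. The median log2 fold change of these genes was 0.11 for age in AL mice.

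Among the neuropeptides, Cck was the one marker that fell. Cholecystokinin (chr9:121489824-121495694) stood at 372, 428, 460.2, 366 and 406 FPKM in AL mice at 5 months and at 259 to 375 FPKM (median 306) in AL mice at 15 months. None of the 6 older AL mice exceeded the younger group's median, although the highest, at 375 FPKM, overlapped with the lowest 5-month values. The log2 fold change was -0.41 with an SE of 0.11, so that the level fell by 24.9%, with adjusted p = 0.0132 and an exact two-sided permutation p = 0.0130 (n = 5 and 6). Over the alternatives run the adjusted p ranged from 0.00701 to 0.698, and the call was kept in 22 of 22 fits that left out 1 library. It was lost with quantile normalization (-0.29, adjusted p = 0.0501), which instead called Gad1 (0.26, adjusted p = 0.0391), and with the region score described below as a covariate.

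CR mice gave a like pair of values for Cck, with 403, 451, 417, 327 and 431 FPKM at 5 months and 270.4 to 369 FPKM (median 324) at 15 months. Again 0 of 6 older mice exceeded the younger median, while the ranges overlapped because 1 CR mouse at 5 months was at 327 FPKM. The log2 fold change of -0.36 (SE 0.11) had a permutation p of 0.0173 in the exact test and an adjusted p of 0.0805, which missed the threshold. It passed only when replicate 3 of the 5-month CR mice or replicate 2 of the 15-month CR mice was left out. The difference between the age contrasts of the 2 diets was 0.05 (interval -0.28 to 0.38, adjusted p = 0.946). Diet differences were -0.01 (interval -0.25 to 0.24) at 5 months and 0.05 (interval -0.17 to 0.27) at 15 months.

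Sst (somatostatin, chr16:23889573-23890958) varied more between mice than with age or diet. Its FPKM was 214, 260.2, 419, 390.2 and 436 in AL mice and 309, 413, 526, 428 and 369 in CR mice at 5 months. At 15 months it spanned 233 to 448 FPKM (median 305) with AL and 225 to 545 FPKM (median 322) with CR. Even within the AL mice at 5 months the level differed about 2-fold, and all groups overlapped. The log2 fold change with age was -0.09 (interval -0.56 to 0.38) in AL mice and -0.29 (interval -0.76 to 0.18) in CR mice.

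Npy (neuropeptide Y, chr6:49822710-49829507) was at 74.9, 105, 105, 113 and 122 FPKM in AL mice and 99.4, 108, 142, 108 and 98.5 FPKM in CR mice at 5 months. The 15-month AL mice ran from 55.6 to 171 FPKM (median 85.8) and the 15-month CR mice from 101 to 178 FPKM (median 112). All 6 CR mice at 15 months lay above the AL median, yet 2 AL mice lay above 5 of them, so the groups overlapped. CR minus AL at 15 months was 0.32 (interval -0.11 to 0.75) on the log2 scale, with adjusted p = 0.441 and an exact permutation p of 0.240. Age contrasts were -0.12 (interval -0.57 to 0.33) in AL mice and 0.10 (interval -0.35 to 0.55) in CR mice.

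Vip (vasoactive intestinal peptide, chr10:5639218-5647617) was at 20.4, 17.3, 25.0, 27.5 and 23.0 FPKM in AL mice at 5 months, and all 6 AL mice at 15 months (23.3 to 53.5 FPKM, median 26.2) were above that group's median. Replicates 4 and 5 stood apart at 47.0 and 53.5 FPKM, and the other 4 older AL mice were at or below 26.9 FPKM, within the 5-month range. The log2 fold change was 0.49 (interval -0.02 to 1.0, adjusted p = 0.157). CR mice were at 21.7, 28.7, 32.8, 29.8 and 16.2 FPKM at 5 months and 12.9 to 29.3 FPKM (median 24.3) at 15 months, with an age contrast of -0.18 (interval -0.68 to 0.33). CR minus AL at 15 months was -0.50 (interval -0.99 to -0.02), with an adjusted p of 0.275 and an exact permutation p of 0.132. The interaction was -0.67 (interval -1.39 to 0.05, adjusted p = 0.657).

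Pvalb (parvalbumin, chr15:78191114-78206400), the calcium buffer of fast-spiking cells, had similar means in all groups but a wide spread at 15 months. The 5-month mice were close together, at 49.0, 55.6, 69.1, 58.4 and 60.9 FPKM with AL and 53.2, 67.0, 51.5, 43.9 and 47.2 FPKM with CR. Of the 6 AL mice at 15 months, 3 were below the whole 5-month AL range, at 21.7, 36.0 and 39.7 FPKM, and 3 were above it, at 71.7, 77.3 and 81.5 FPKM. The CR mice at 15 months were at 25.2, 29.6, 33.8, 59.6, 76.8 and 80.1 FPKM, 3 below and 2 above the 5-month CR range. On the log2 scale the SD was 0.18 and 0.23 at 5 months but 0.76 (AL) and 0.73 (CR) at 15 months. The median SD over the tested genes averaging 1 FPKM or more was 0.14 (AL) and 0.15 (CR) at 5 months and 0.17 (AL) and 0.23 (CR) at 15 months. Spread was not put to a test. The age contrast of the mean was -0.24 (interval -0.93 to 0.44) in AL mice and -0.18 (interval -0.87 to 0.50) in CR mice, and both intervals allow a fall as large as that of Cck.

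Lhx6 (chr2:36081953-36105408), the transcription factor that parvalbumin and somatostatin cells keep from their origin in the medial ganglionic eminence, was at 6.44, 7.36, 8.01, 7.50 and 9.80 FPKM in AL mice at 5 months. The AL mice at 15 months were at 8.63 to 14.6 FPKM (median 9.63), all 6 above the younger median. CR mice at 5 months were at 11.6, 10.3, 11.5, 9.75 and 7.62 FPKM, all 5 above the AL median at that age, and CR mice at 15 months at 6.66 to 11.0 FPKM (median 9.08). The groups overlapped in every comparison. Lhx6 was 0.38 higher on the log2 scale with age in AL mice (SE 0.15, adjusted p = 0.0733, exact permutation p = 0.0260) and 0.37 higher with CR at 5 months (SE 0.16, adjusted p = 1, exact permutation p = 0.0476). The interaction was -0.58 (SE 0.21), with an unadjusted limma p of 0.0126 and an adjusted p of 0.628, so the contrary age contrasts of the 2 diets (0.38 and -0.20) were not called different. Without replicate 4 of the AL mice at 5 months, whose 9.80 FPKM was the highest of its group, the adjusted p for age in AL mice was 0.0481.

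Reln (reelin, chr5:21884454-22344702), a secreted glycoprotein that guides neuronal layering in development and acts on synapses in the adult, rose with age in AL mice. It was at 9.57, 7.96, 8.00, 7.35 and 12.1 FPKM at 5 months and at 11.5 to 21.9 FPKM (median 13.7) at 15 months. All 6 older AL mice were above the younger median, and 1 younger mouse, at 12.1 FPKM, exceeded the lowest older one. The mean went from 9.00 ± 1.93 to 15.2 ± 3.77 FPKM (SD, n = 5 and 6), a log2 fold change of 0.74 with an SE of 0.22, with adjusted p = 0.0248 and an exact permutation p of 0.00866. The call was lost without replicate 1, 2 or 3 of the AL mice at 5 months or replicate 1 of the AL mice at 15 months, and the adjusted p over all alternatives ran from 0.00861 to 0.902. Antisense genes (Gm10475 and Gm16110) lie within Reln, and strand was not recorded.

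In CR mice Reln was at 9.47, 9.71, 9.64, 11.0 and 6.51 FPKM at 5 months and at 11.2 to 28.8 FPKM (median 13.3) at 15 months, without overlap. Groups that do not overlap occurred in 3.26% of all tested genes in this comparison and in 1 of the 10 markers. The log2 fold change was 0.76 (SE 0.22, exact permutation p = 0.00433), and the adjusted p of 0.0669 missed the threshold. It passed without replicate 2 or 3 of the CR mice at 15 months. The interaction for Reln was 0.02 (interval -0.64 to 0.68), and CR minus AL was 0.05 (interval -0.44 to 0.53) at 5 months and 0.06 (interval -0.38 to 0.51) at 15 months.

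The dissected tissue differed between the ages in its regional markers, and these values stand beside the calls of Reln and Cck. Of 7 markers of CA1 pyramidal neurons, 5 fell in AL mice at 15 months, among them Spink8 by 3.81 and Fibcd1 by 3.35 on the log2 scale, and their summed level went from 365 to 689 FPKM at 5 months to 221 to 357 FPKM. Of 12 markers of neocortex and subiculum, the neighbouring cortex, 4 rose, with Cux2 up by 2.11 and Tbr1 by 1.47, and 1 fell, with a summed level of 115 to 163 FPKM at 5 months and 153 to 267 FPKM at 15 months. None of either list was at 0 in any library. A region score, the mean log2 level of the cortical list minus that of the CA1 list, was -3.22 ± 0.65 in AL and -3.48 ± 0.37 in CR mice at 5 months, against -0.87 ± 0.57 and -1.86 ± 0.99 at 15 months (SD). Lamp5, which is also a gene of the neurogliaform list below, is among the 12 cortical genes of this score.

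With the region score as a covariate in the fit, Reln's log2 fold change in AL mice was 0.16 (adjusted p = 0.902) and Cck's was -0.20 (adjusted p = 0.698), and 0 markers were called. Of all 16978 tested genes 1 was called for age in AL mice in that fit, against 3502 without the covariate, and the list counts below are from the fit without it. The scores of the AL groups did not overlap, so age and region cannot be told apart in AL mice. Replicates 1 and 3 of the CR mice at 15 months, at -2.84 and -3.33, lay within the range of all 5-month mice (-3.91 to -2.27), the former above that of the CR mice (-3.91 to -3.09). Their Reln was 14.0 and 11.2 FPKM, where the 5-month mice spanned 6.51 to 11.0 FPKM with CR and 7.35 to 12.1 FPKM with AL. Their Cck was 334 and 329 FPKM, where the 5-month mice spanned 327 to 451 FPKM with CR and 366 to 460 FPKM with AL. These are single libraries picked by their score, and no conclusion is drawn from them. The part of the dissection in these results was not tested.

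**Figure D3:**
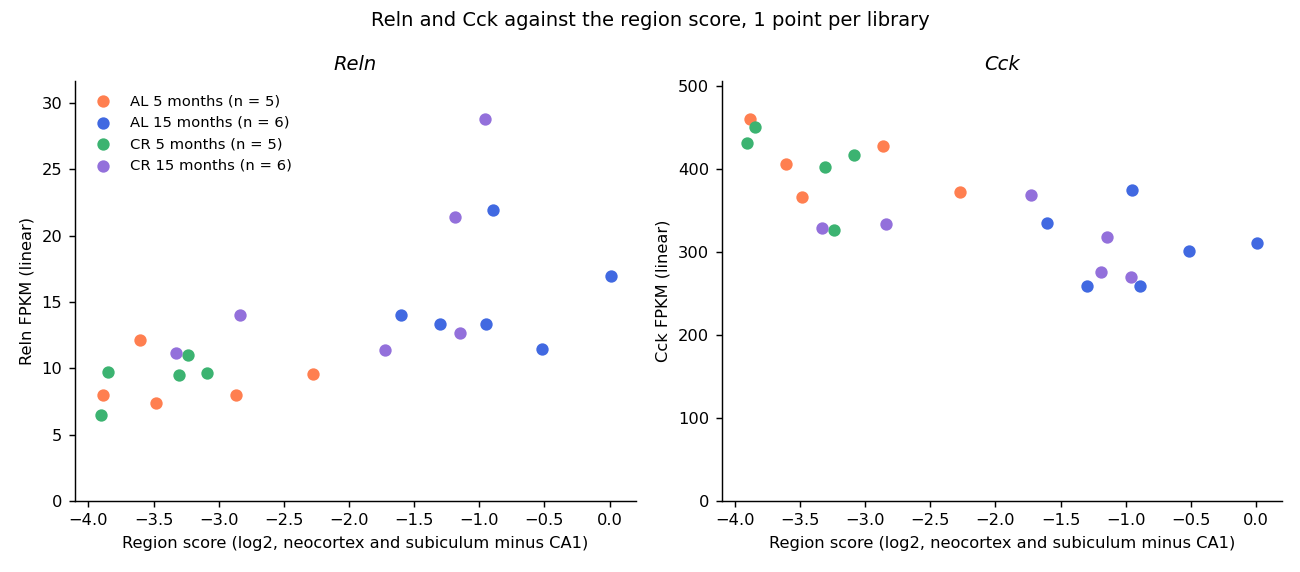
Reln and Cck FPKM (vertical axes, linear) against the region score (horizontal axis, log2 units, higher for more cortical relative to CA1 marker mRNA), 1 point per library, coloured by diet and age. AL libraries at 5 months score from -3.88 to -2.27 and AL libraries at 15 months from -1.60 to 0.01, without overlap. A trend over all libraries therefore cannot be told apart from age in AL mice, and none was tested.

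Markers of other cells that could contribute these transcripts were counted too. Of 3 tested Cajal-Retzius genes, Trp73 fell by 1.99 on the log2 scale (mean 1.22 to 0.270 FPKM, limma adjusted p = 0.00306). Nhlh2 (-1.23, adjusted p = 0.0600) and Ebf3 (0.03, adjusted p = 0.941) were not called. The summed level of all 5 genes of that list was 1.52 to 3.22 FPKM in AL mice at 5 months and 0.557 to 1.64 FPKM at 15 months. Striatum and amygdala genes rose in 3 of 8 tested, led by Drd1a (1.51), and thalamus and habenula genes in 3 of 6. These counts stand beside 20.6% of all genes called in this comparison. Genes fell in the dentate gyrus (2 of 6), CA3 (1 of 6), choroid plexus (3 of 6), oligodendrocyte (1 of 5) and microglia (1 of 5) lists. Astrocyte markers gave 1 rise and 1 fall of 5, and endothelium and immediate early gene lists gave 0 of 5 and 0 of 8. In CR mice 0 of 7 CA1 markers were called with age (median -0.68), 1 cortical gene (Lamp5, 0.88) and Drd1a (1.46) rose, and 5 of 6 choroid plexus genes fell, beside 3.36% of all genes called. Isl1, of the striatal list, was listed at 0 in some 15-month libraries of both diets and Lhx1, of the Cajal-Retzius list, in some 15-month CR libraries. Their part in the marker values was not tested.

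The other comparisons called 0 of the 10 markers. For age in CR mice 3.36% of all tested genes were called, and an unadjusted p under 0.05 was reached by 2 markers (Cck and Reln) and by 18.0% of all genes. For CR against AL at 5 months 0% of genes were called, and the unadjusted threshold was passed by 1 marker (Lhx6) and 4.65% of genes. For CR against AL at 15 months 0.742% were called, with 1 marker (Vip) and 17.1% of genes at an unadjusted p under 0.05. This diet comparison and the age comparison in AL mice share the 6 AL libraries at 15 months, so their values are not independent. When the older CR mice were set against the younger AL mice, 3.12% of genes were called, with 2 markers and 19.3% of genes unadjusted, where Reln was 0.80 higher (adjusted p = 0.0529) and Cck 0.37 lower on the log2 scale (adjusted p = 0.0765). The interaction gave 0% called, with 1 marker (Lhx6) and 7.66% of genes at an unadjusted p under 0.05.

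Genes for the receptors of these peptides were called in both directions. Of 12 listed, 11 were tested, and Cckar, listed at 0 in at least 1 library of every group, was too low. With age in AL mice 5 of the 11 rose and 2 fell, where 20.6% of all genes were called, and their median log2 fold change was 0.44 against 0.00 over all tested genes. Cckbr, the brain-type cholecystokinin receptor, rose from 4.61 ± 2.22 to 25.9 ± 9.37 FPKM (SD), by 2.49 ± 0.47 (SE) on the log2 scale with adjusted p = 0.00132. Vipr1 rose from 6.01 ± 0.71 to 9.62 ± 1.73 FPKM (log2 fold change 0.66, adjusted p = 6.8e-04) and the somatostatin receptor Sstr2 from 5.13 ± 1.60 to 14.5 ± 3.66 FPKM (1.49, adjusted p = 0.00153). Sstr4 fell from 28.1 ± 6.24 to 10.7 ± 1.65 FPKM (-1.37, adjusted p = 0.00185), so receptors of 1 peptide went in opposite directions. Sstr1 (1.18) and Npy1r (0.44) also rose and Sstr3 (-0.58) fell, named after their values were seen. In CR mice Vipr1 rose (0.49, adjusted p = 0.0144) and Sstr3 fell (-0.55, adjusted p = 0.0484), and neither diet comparison called a receptor. The region score differed between the same AL groups, and its part in the receptor values was not tested.

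**Figure D4:**
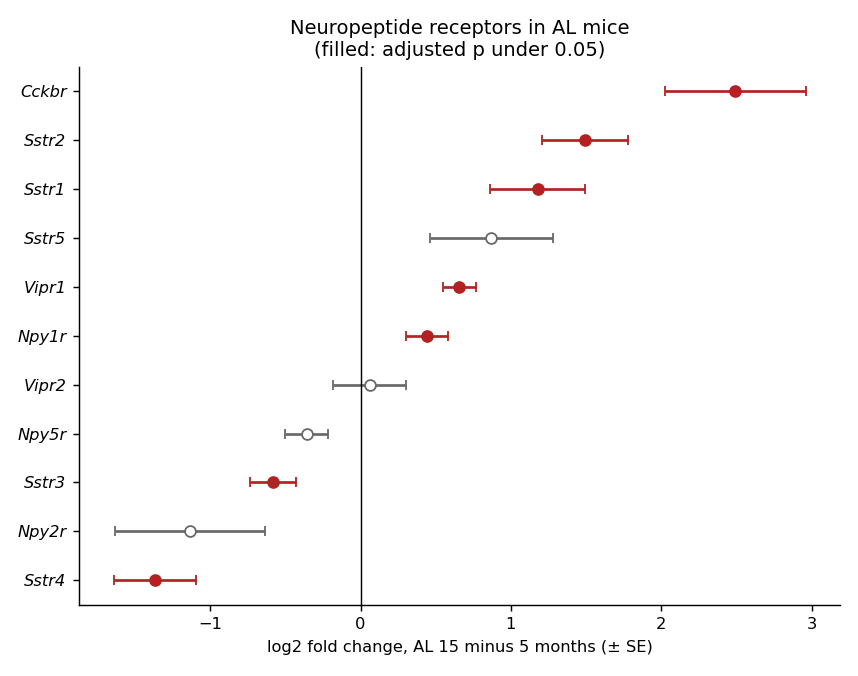
Fitted log2 fold change of log2(FPKM + 0.1) with its SE (horizontal axis, AL mice, 15 minus 5 months) for 11 tested neuropeptide receptors (vertical axis). Filled red points passed an adjusted p under 0.05, with Cckbr highest at 2.49 and Sstr4 lowest at -1.37, 5 of them higher and 2 lower.

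Reelin acts through the lipoprotein receptors Lrp8 (ApoER2) and Vldlr and the adaptor Dab1. Lrp8 rose from 13.1 ± 1.32 to 16.7 ± 1.74 FPKM with age in AL mice (log2 fold change 0.35, SE 0.10, adjusted p = 0.0167). Dab1 (-0.20, adjusted p = 0.0787) and Vldlr (-0.01, adjusted p = 0.940) did not pass, and no gene of this group was called in another comparison. The 1 call of 3 stands beside 20.6% of all tested genes called for age in AL mice, and 1 of all tested genes with the region score as a covariate.

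Transcription factors of the interneuron lineage gave 4 rises and 1 fall among 16 in AL mice, where 20.6% of all genes were called without the region score as a covariate and 1 gene with it. Npas1, found in interneurons of the caudal ganglionic eminence, fell from 11.7 ± 0.93 to 8.40 ± 1.22 FPKM (-0.48 on the log2 scale, adjusted p = 0.00303). Satb1 rose from 14.8 ± 3.32 to 34.2 ± 11.9 FPKM (1.12, adjusted p = 0.00872), a gene that cortical neurons also transcribe. Sox6 rose as well (0.45), named after its value was seen. In the other 5 contrasts 0 of these 16 genes were called.

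Genes of the interneuron types were called for age in AL mice in 2 of 9, 1 of 10, 2 of 10 and 2 of 6 cases, beside 20.6% of all genes, and with the region score as a covariate 1 of all tested genes was called. Of 9 parvalbumin-type genes, Btbd11 (0.82, adjusted p = 0.0118) and the neuregulin receptor Erbb4 (0.65, adjusted p = 0.0316) rose, while the potassium channel gene Kcnc2 gave 0.32 (adjusted p = 0.117). Of 10 somatostatin-type genes only Cort, which encodes the related peptide cortistatin, rose (0.61, adjusted p = 0.0499). Of 10 Vip- and Cck-type genes the peptide genes Crh (1.24, adjusted p = 0.00990) and Tac2 (0.86, adjusted p = 0.0247) rose. Tac2 is at the same time a gene of the thalamus and habenula list. The cannabinoid receptor Cnr1, found on Cck basket cells, gave -0.34 (adjusted p = 0.0617). Among 6 neurogliaform genes Lamp5 rose (1.17, adjusted p = 0.00241) and Kit fell (-0.67, adjusted p = 0.0206). Both were also called with age in CR mice, at 0.88 (adjusted p = 0.0488) and -0.997 (adjusted p = 0.00610), and Lamp5 is at the same time a gene of the cortical list.

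Within groups, some markers deviated together from mouse to mouse. These are correlations of deviations from the group mean of log2(FPKM + 0.1) over 22 libraries, given as a description, since all genes share each library's dissection and normalization. Gad2 and Lhx6 had a Pearson r of 0.85 (0.81 without the 2 libraries farthest from the median), Sst and Npy 0.73 (0.64), Pvalb and Cck 0.73 (0.65) and Gad1 and Pvalb 0.71 (0.67). The log2 SD of Pvalb was 0.76 (AL) and 0.73 (CR) at 15 months against 0.18 and 0.23 at 5 months. Each r of Pvalb, here and in the ranking below, therefore rests mostly on the 15-month libraries. Cck and Reln deviated in opposite directions, with r = -0.56. The GABA-synthesizing enzymes Gad1 and Gad2 had an r of only 0.19.

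**Figure D5:**
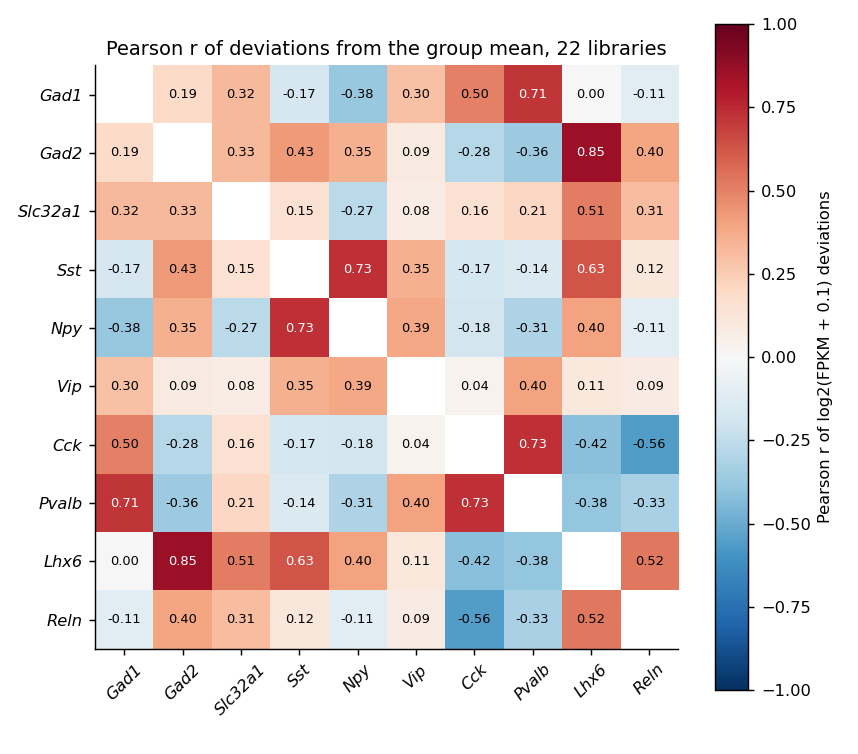
Pearson r between each pair of markers (both axes) for deviations of log2(FPKM + 0.1) from the group mean, over 22 libraries in 4 groups, on a colour scale from -1 (blue) to 1 (red). The highest r is 0.85 for Gad2 and Lhx6 and the lowest is -0.56 for Cck and Reln.

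Ranked in the same way against 13455 genes that averaged 1 FPKM or more, the gene most like Pvalb was Syt2 (r = 0.93), a synaptotagmin of fast-spiking terminals, followed by Zdhhc3 and Nkiras1. Lhx6 was the gene most like Gad2 (r = 0.85), ahead of Syt6 and Rragb, and Lhx6 itself was most like Ankrd55 (r = 0.90), Trim62 and Fam179a. Abcg4 (r = 0.86) was closest to Slc32a1, and Fam20c was also among its 3 closest, while those of Reln were Farp1 (r = 0.83), Acvr2b and Fzd1. Gad1 was closest to Gins4 (r = 0.84), Ufm1 and Auh, and Sst to Rasal1 (r = 0.83), Prkar1b and Ptprn. The remaining peptides were closest to Pik3r5 for Npy (r = 0.88, with Cinp and Gnb4), Rnd1 for Vip (r = 0.84, with Srpk1 and Kcnip1) and Ndufa6 for Cck (r = 0.86, with AI837181 and Psmb5).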

How the data were processed

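CA1 mRNA of 22 female mice was sequenced from libraries made with TruSeq RNA kits, which do not mark strand. Alignment by the authors was to mm10 (TopHat), followed by duplicate removal (Picard MarkDuplicates) and estimation of the deposited FPKM values (Cufflinks, with corrections for fragment bias and multiply mapped reads), which were used unchanged. Tool versions and the annotation release are not given in the sources used here. Median FPKM was 2.51 to 3.10 per library. At most 1.21% of low genes lay on a common ratio between libraries, so reads were not recovered, and the depth behind single values is unknown.

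Genes averaging 0.1 FPKM or more were tested as log2(FPKM + 0.1). The fold changes are on this scale and understate changes of low genes. The 4 groups entered 1 fit with limma 3.58.1 in R 4.3.3 (eBayes with trend), which gave the SE and the 95% intervals, tested two-sided, with Benjamini-Hochberg adjustment over 16978 genes per contrast. Exact two-sided permutation tests compared single genes in Python 3.11.15 with scipy 1.17.1, the smallest possible p being 0.00794 for 5 against 5 mice and 0.00216 otherwise. numpy 2.4.6, pandas 2.3.3 and matplotlib 3.10.9 made the tables and figures. Gene coordinates are from GENCODE M21 (GRCm38), and promoters from RefSeq, in which all 10 markers matched.

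The 10 markers are named in every contrast, and of each of 21 other lists up to 4 genes with the smallest adjusted p for age in AL mice. For each marker the 3 genes of highest correlation are named, leaving out microRNA and small nucleolar RNA genes. Some genes that this rule would name are not reported here. The markers and lists were chosen with earlier results of these data known. The fit was tested on simulated data. Alternatives were other pseudocounts (1 and 0.01), filters and scalings, eBayes without trend, separate fits, a replicate block, the region score as a covariate, and leaving out each library.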

Additional observations from a re-analysis of the deposited data

Results flagged for a closer look

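In 4 of 40 groups of marker values (10 genes, 4 groups) 1 mouse stood far above the rest by Dixon's test, where chance gives about 5%. Replicate 2 of the AL mice at 15 months was high for both Gad2, at 51.5 FPKM against 36.4 to 41.9 FPKM in the other 5, and Lhx6, at 14.6 FPKM against 8.63 to 10.4 FPKM. For Npy, replicate 2 of the CR mice at 5 months was at 142 FPKM against 98.5 to 108 FPKM, and replicate 1 of the CR mice at 15 months at 178 FPKM against 101 to 116 FPKM. The age by diet interaction was called for 0 markers and for 0 of all genes by limma, with 1 marker (Lhx6) and 1301 genes at an unadjusted p under 0.05.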

How the results depend on the processing

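For age in AL mice 2 markers were called in the reported fit and under each alternative that kept all libraries, except that the region score as a covariate left 0. With quantile normalization the 2 were Reln (adjusted p = 0.0330) and Gad1 (0.26, adjusted p = 0.0391), and Cck was not called (-0.29, adjusted p = 0.0501). Leaving out 1 library at a time gave 1 to 3 called markers there, 0 to 2 for age in CR mice and 0 to 2 for older CR against younger AL mice. The lower count followed from leaving out replicate 1, 2 or 3 of the AL mice at 5 months or replicate 1 of the AL mice at 15 months, without any of which Reln was lost. The calls gained for age in CR mice came without replicate 3 of the CR mice at 5 months (Cck), replicate 2 (Cck and Reln) or replicate 3 (Reln) of the CR mice at 15 months. For older CR against younger AL mice they came without replicate 4 of the CR mice at 5 months, replicate 1 of the AL mice or replicate 3 of the CR mice at 15 months (Reln each time), or replicate 2 of the CR mice at 15 months (both). The cause was not tested.

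Signs changed only in log2 fold changes that were not called. Under quantile normalization these were Sst (0.068) for age in AL mice, Gad1 (0.044) for age in CR mice, Cck for diet at 15 months (-0.018) and in the interaction (-0.0082), and Sst for older CR against younger AL mice (0.076). With the region score as a covariate they were Sst (0.24), Vip (-0.15) and Npy (0.056) for age in AL mice, Gad1 (0.010), Sst (-0.054) and Cck (-0.041) for diet at 15 months, Gad2 (-0.034) and Sst (0.18) for older CR against younger AL mice, and Cck in the interaction (-0.013). Shifting libraries to a common median turned Gad1 for diet at 15 months (0.012) and Gad2 for older CR against younger AL mice (-0.017).

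With 1 library left out, signs also changed for values near 0. The ranges were -0.25 to 0.0097 (Sst) and -0.29 to 0.030 (Npy) for age in AL mice, and -0.052 to 0.033 (Gad1) and -0.020 to 0.19 (Npy) for age in CR mice. For diet at 5 months they were -0.013 to 0.16 (Npy), -0.046 to 0.071 (Cck) and -0.022 to 0.17 (Reln), and at 15 months -0.068 to 0.030 (Gad1), -0.33 to 0.072 (Pvalb), -0.062 to 0.19 (Sst) and -0.11 to 0.18 (Reln). For older CR against younger AL mice they were -0.054 to 0.067 (Gad2), -0.14 to 0.012 (Slc32a1), -0.16 to 0.10 (Sst) and -0.10 to 0.14 (Vip), and in the interaction -0.17 to 0.23 (Pvalb), -0.023 to 0.11 (Cck) and -0.16 to 0.13 (Reln).

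The replicate numbers of the labels do not appear to pair mice: deviations from the group mean correlated at -0.139 to 0.163 within the 31 same-number pairs, above 0.1 in 2 of them, and 5 of 22 libraries correlated best with their own number. Under a replicate block 2 markers were called for age in AL mice, Gad2 (-0.0028) and Sst (0.014) changed sign for older CR against younger AL mice, and the calls among all genes went from 126 to 323 for diet at 15 months. Among all genes, a common median gave 1441 higher of 3727 calls for age in AL mice against 1809 of 3502, and 87 of 138 for diet at 15 months against 56 of 126. The calls for age in CR mice were 570, against 304 for genes averaging 1 FPKM or more and 324 when only the CR groups were fitted. The calls for diet at 15 months were 77 with quantile normalization (52 higher) and 0 in a separate fit (2003 genes at an unadjusted p under 0.05), and those for older CR against younger AL mice 529, 340 for genes averaging 1 FPKM or more and, in a separate fit, 218. For diet at 5 months eBayes without the trend called 1 gene where the reported fit called 0, and a separate fit gives no interaction. With the region score as a covariate these 4 counts were 1, 7, 4 and 37, in the order age with AL, age with CR, diet at 15 months and older CR against younger AL mice. The paper gives only an average read depth, and that of single libraries is not known, so the spread between mice alone sets the precision.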
